A study of Rattus norvegicus with 6 samples.

Results

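The genes described here are p53 targets of the death arm, those through which the transcription factor p53 is known to promote apoptosis. The list names 10 genes (Bbc3, Pmaip1, Bax, Fas, Tnfrsf10b, Phlda3, Aen, Perp, Apaf1 and Eda2r), chosen by name. Each was taken by the array feature, called a transcript cluster, to which the platform annotation gives that symbol alone, and by the brightest such cluster on average where there were several. This gave 9 of the 10 genes, out of 14506 genes with such a cluster. No cluster was matched to Eda2r, the receptor for an ectodysplasin isoform, and it was not analysed here.

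The arrays hold RNA from primary motor neuron cultures of embryonic day 13.5 rats, kept 2 days in vitro. The cultures then received 1 microM camptothecin, or as control the same volume of its solvent DMSO, for 2 h, with 3 arrays for each treatment. Camptothecin traps topoisomerase 1 on DNA, and the question put to these genes is whether their transcripts change within that time. The samples are labelled biological replicates, but not which cultures or litters they came from, so a p-value here covers the spread among these 6 samples alone. No genotype or strain is given for either treatment.

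The p53 protein is stabilised by kinases that sense DNA breaks, and it then activates genes for cell cycle arrest, repair and death. In the mitochondrial route of apoptosis, BH3-only proteins neutralise the protective members of the BCL2 family, BAX and BAK open the outer mitochondrial membrane, and released cytochrome c joins APAF1 to activate caspase 9. In the receptor route, death receptors at the cell surface recruit the adaptor FADD and caspase 8. Developing motor neurons are known for a period of naturally occurring death, and BAX is needed for that death in mice.

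Of the 9 measured genes, 4 rose with camptothecin and 0 fell (limma with Benjamini-Hochberg adjustment over all 29214 clusters, adjusted p under 0.05). Among all 14506 genes, 11.3% rose and 9.35% fell. The genes that rose were Phlda3, Pmaip1, Perp and Bbc3. No member was lower at an unadjusted p under 0.05 either, and Bax was the fifth gene whose unadjusted p lay under 0.05. The 3 camptothecin values lay above all 3 DMSO values for 5 of the 9 genes, these same 4 and Bax, where 27.1% of all genes did so. The median log2 change (camptothecin minus DMSO) was 0.24 over the 9 genes and 0.06 over all genes. All 9 changes were above 0 on the deposited scale, as were 62.5% of all genes. With arrays centred instead on their ribosomal protein genes, which moves the median change of all clusters by -0.25, the members' median was -0.01 and 5 of the 9 changes lay below 0. The ribosomal protein genes were themselves higher on average with camptothecin on the deposited scale, and this centring takes their mean change off every gene. Which scale is the better one was not tested. Array medians were 6.31 to 6.33 with camptothecin and 6.22 to 6.28 with DMSO, so the scale on which the arrays are set bears on every small change below.

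**Figure D1:**
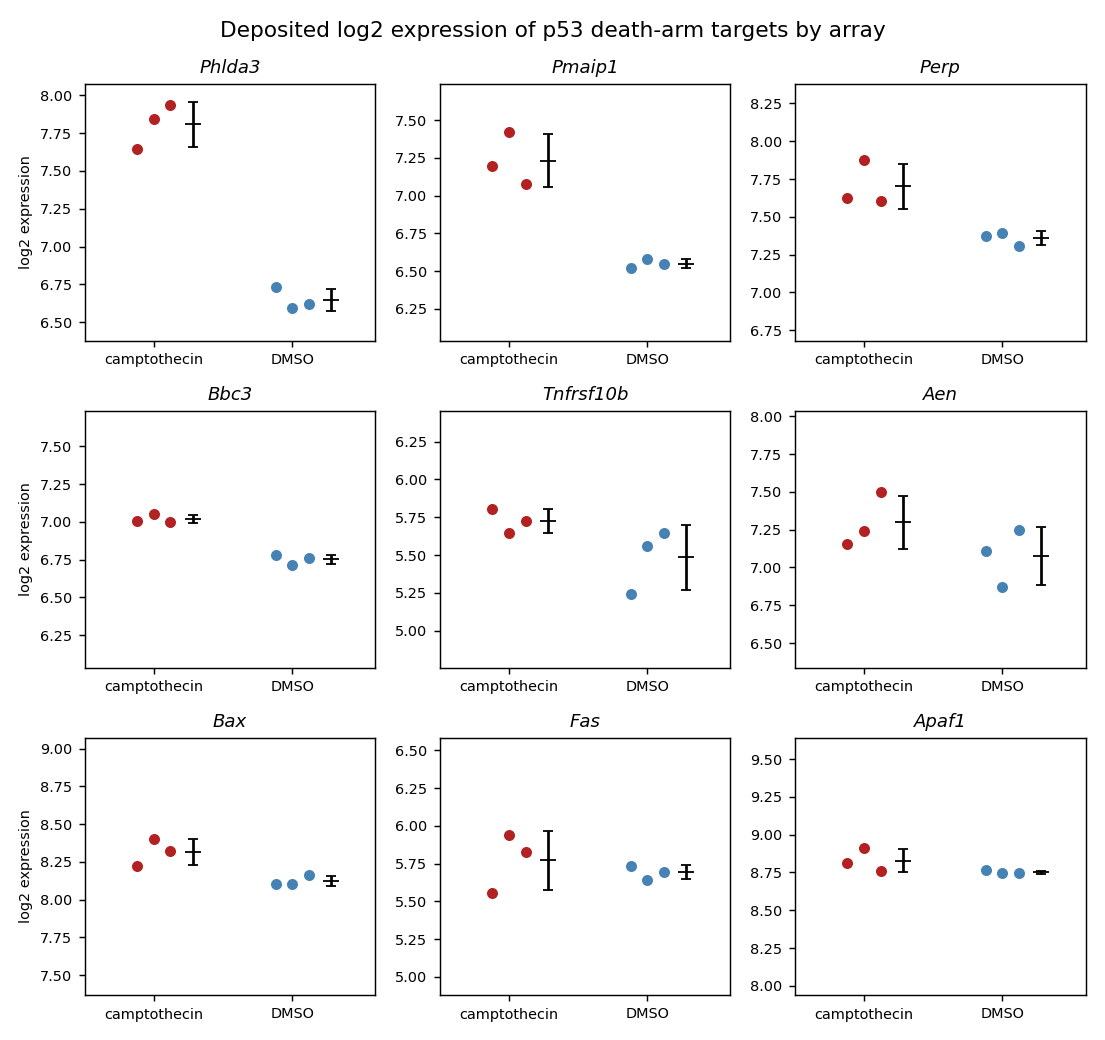
Deposited log2 expression of the 9 measured genes on each array, camptothecin left and DMSO right, with replicates 1 to 3 in order within a treatment. Bars beside the points give the mean and SD (n = 3), all panels span the same log2 range, and the treatments do not overlap for Phlda3, Pmaip1, Perp, Bbc3 and Bax.

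Phlda3 had the largest change of the 9. It encodes a small protein, little more than a pleckstrin homology domain, that competes with the survival kinase AKT for membrane lipids. Its log2 expression was 7.65, 7.85 and 7.94 with camptothecin, against 6.73, 6.59 and 6.62 with DMSO. The lowest camptothecin value stood 0.92 above the highest DMSO value, a gap wider than the spread within either treatment. Phlda3 rose 2.24-fold, a log2 change of 1.16 (SE 0.09, n = 3 in each treatment, limma adjusted p = 3.99e-04), the 26th largest rise among all genes. It was the only member to rise by 2-fold or more, as 0.303% of all genes did. Its 95% interval of 0.94 to 1.38 lay above the intervals of all 8 other members.

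Of the BH3-only genes, Pmaip1 rose by more than Bbc3. Pmaip1 encodes NOXA, which binds chiefly the protective protein MCL1. It read 7.19, 7.42 and 7.08 with camptothecin, against 6.52, 6.58 and 6.55 with DMSO. The DMSO values lay close together and the camptothecin values spread more widely, with no overlap. Pmaip1 rose 1.6-fold (log2 change 0.68, SE 0.10, 95% interval 0.45 to 0.91, limma adjusted p = 0.00468).

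Bbc3 encodes PUMA, which binds all the main protective BCL2 proteins. It read 7.003, 7.049 and 7.001 with camptothecin, against 6.779, 6.717 and 6.759 with DMSO. The replicates of each treatment were tight, with a pooled SD of 0.03 where the median over all genes was 0.11, and the groups did not overlap. Bbc3 rose 1.2-fold (0.27, SE 0.06, 95% interval 0.12 to 0.41, limma adjusted p = 0.0272), and its interval did not meet that of Pmaip1. The call was lost with any 1 of the 6 arrays left out (adjusted p 0.0582 to 0.102) and with arrays centred on their median (0.20, adjusted p = 0.0732) or on the ribosomal protein genes (0.02, adjusted p = 0.849).

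Bax, the pore-forming protein on which the BH3-only proteins act, read 8.22, 8.40 and 8.32 with camptothecin, against 8.11, 8.11 and 8.16 with DMSO. The groups did not overlap but stood only 0.06 apart. The change of 0.19 (SE 0.07, 95% interval 0.02 to 0.36) did not pass after adjustment (limma adjusted p = 0.119; unadjusted p = 0.0332). It passed when clusters below the median brightness were left out before testing (adjusted p = 0.044). A second, noisier Bax cluster changed by 0.24 (SE 0.17, adjusted p = 0.4) and its groups overlapped.

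The death receptor genes did not pass the test. Fas, the receptor for FAS ligand, read 5.55, 5.94 and 5.82 with camptothecin, against 5.74, 5.64 and 5.70 with DMSO. The camptothecin arrays lay on both sides of the DMSO arrays, and the change was 0.08 (SE 0.11, 95% interval -0.17 to 0.33, limma adjusted p = 0.665). Without camptothecin replicate 2, the highest of the 6, it was -0.00342.

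Tnfrsf10b, the TRAIL death receptor, read 5.81, 5.65 and 5.72 with camptothecin, against 5.24, 5.56 and 5.65 with DMSO. DMSO replicate 1 was the lowest and DMSO replicate 3 reached the camptothecin values. The change was 0.24 (SE 0.12, 95% interval -0.03 to 0.51, limma adjusted p = 0.205). Both receptor genes were dim, with means below the median of all cluster means (6.28), as no other member was. Their pooled SDs exceeded those of 73.3% of all genes for Fas and 80.3% for Tnfrsf10b.

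Perp and Aen lie outside the routes outlined above. Perp encodes a tetraspan membrane protein of desmosomes that contributes to p53-dependent death in mouse cells. It read 7.63, 7.87 and 7.61 with camptothecin, against 7.37, 7.40 and 7.31 with DMSO, with camptothecin replicate 2 the highest and no overlap. Perp rose 1.27-fold (0.34, SE 0.09, 95% interval 0.13 to 0.56, limma adjusted p = 0.0401). As for Bbc3, the call was lost with any 1 array left out (adjusted p 0.0571 to 0.119) and with arrays centred on their median (0.28, adjusted p = 0.0897) or on the ribosomal protein genes (0.09, adjusted p = 0.341).

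Aen, a nuclear exonuclease that enhances apoptosis, read 7.15, 7.24 and 7.50 with camptothecin, against 7.11, 6.87 and 7.25 with DMSO. Both treatments spread widely and overlapped. Aen had the widest spread of the 9 (pooled SD 0.19, larger than that of 87.4% of all genes), and its change of 0.22 (SE 0.13, 95% interval -0.08 to 0.53) did not pass (limma adjusted p = 0.289).

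Apaf1, the scaffold of the apoptosome, read 8.81, 8.91 and 8.76 with camptothecin, against 8.76, 8.75 and 8.75 with DMSO. Camptothecin replicate 3 lay among the DMSO values, and the change was 0.07 (SE 0.07, limma adjusted p = 0.504). Here the measurement was tight, and the 95% interval of -0.08 to 0.23 does not reach the estimate for Perp (0.34). The interval of Perp (0.13 to 0.56) overlaps that of Apaf1, and the difference between them was not tested.

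**Figure D2:**
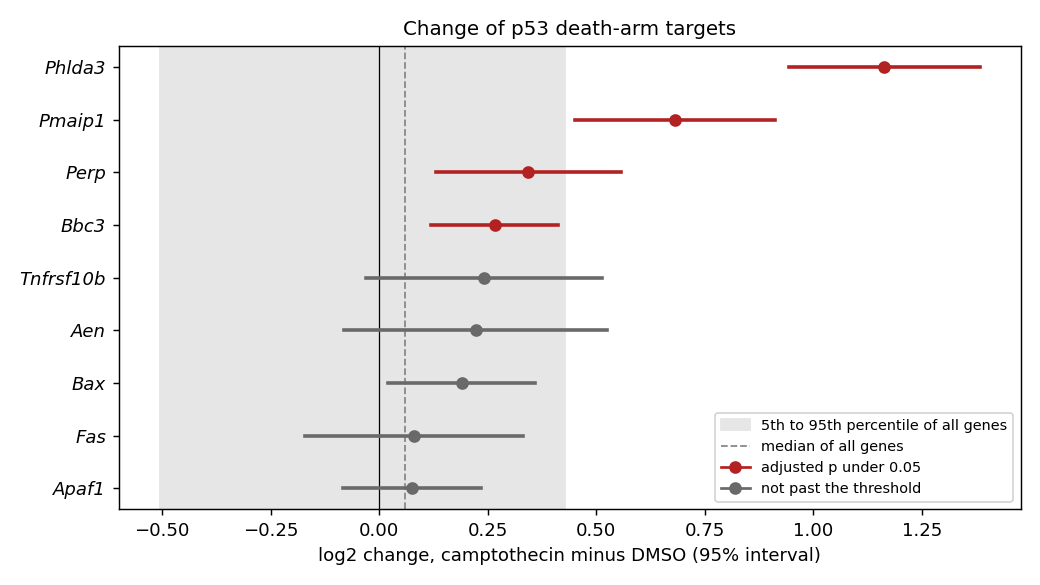
Log2 change (camptothecin minus DMSO) of each gene as a point with its 95% interval from limma, in red where the adjusted p was under 0.05. The grey band spans the 5th to 95th percentile of all 14506 genes (-0.51 to 0.43) and the dashed line their median (0.06); Phlda3 and Pmaip1 alone have points beyond the band.

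Against all genes, the change of Phlda3 exceeded 99.8% and that of Pmaip1 99% of the 14506 values. Perp stood above 90.2%, Bbc3 above 83.7%, Tnfrsf10b above 81.1%, Aen above 78.7% and Bax above 74.2%. Fas at 54.3% and Apaf1 at 53.2% lay near the middle. Over the camptothecin arrays, replicate 2 held the highest value for 6 of the 9 genes, replicate 3 for 2 and replicate 1 for 1. The members are not independent replicates of the treatment, since all 9 were read from the same arrays.

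**Figure D3:**
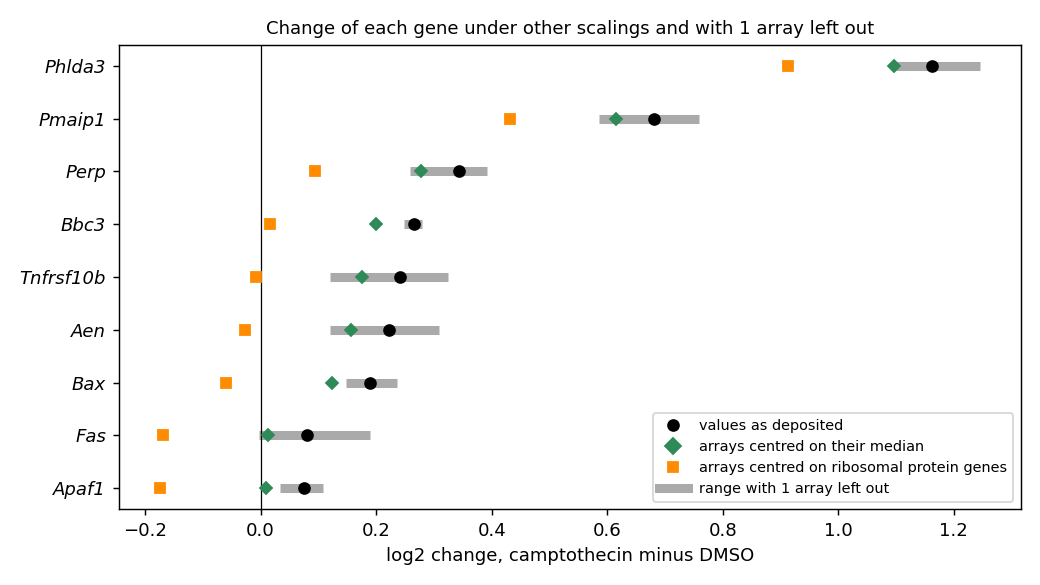
Log2 change (camptothecin minus DMSO) of each gene with values as deposited (black), with arrays centred on their median (green) and on the ribosomal protein genes (orange), and the range with 1 array left out (grey bar). Phlda3 and Pmaip1 stay at or above 0.43 throughout, while Bax, Tnfrsf10b, Aen, Fas and Apaf1 lie below 0 under the ribosomal centring.

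The genomic spans of the 9 genes, taken from the RefSeq table of the rat assembly GRCr8, ran from 3.09 kb for Phlda3 to 85.4 kb for Apaf1, with a median of 9.4 kb where that of all genes with a span was 18.0 kb. The 4 genes that rose spanned 12.4 kb or less, and the 2 with the longest spans, Apaf1 and Fas (33.6 kb), had the smallest changes. Bax (5.43 kb) and Aen (9.4 kb) were as short and did not pass. Tnfrsf10b spanned 28.2 kb and changed by 0.24, beside 0.19 for Bax and 0.22 for Aen. Whether span and change go together was not tested. Among all genes spanning under 30 kb, 15.2% rose, and their median change was 0.10.

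Promoter sequences, 250 bases before to 50 after the start in RefSeq on GRCr8, were matched for 6 of the 9 genes: Pmaip1, Fas, Phlda3, Aen, Perp and Apaf1. They were searched for the 10-base p53 consensus, a pair of which, up to 13 bases apart, makes a full p53 response element. The promoters of the genes with the largest rises are printed with that of Aen, which held the only match, in capitals.
Phlda3, chr13:49744753-49745052, plus strand: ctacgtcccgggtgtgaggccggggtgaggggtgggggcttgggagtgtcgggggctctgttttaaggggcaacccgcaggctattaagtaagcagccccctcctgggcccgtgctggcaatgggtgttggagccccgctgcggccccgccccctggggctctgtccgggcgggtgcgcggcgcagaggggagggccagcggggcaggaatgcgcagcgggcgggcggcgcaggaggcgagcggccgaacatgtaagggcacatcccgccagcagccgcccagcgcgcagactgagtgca
Pmaip1, chr18:62255720-62256019, plus strand: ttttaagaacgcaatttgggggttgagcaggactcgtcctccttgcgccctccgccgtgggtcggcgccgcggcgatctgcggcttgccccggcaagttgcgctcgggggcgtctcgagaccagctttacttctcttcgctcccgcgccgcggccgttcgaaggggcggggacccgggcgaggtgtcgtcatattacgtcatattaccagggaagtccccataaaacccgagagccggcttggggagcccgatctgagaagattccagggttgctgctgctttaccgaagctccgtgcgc
Aen, chr1:142224283-142224582, plus strand: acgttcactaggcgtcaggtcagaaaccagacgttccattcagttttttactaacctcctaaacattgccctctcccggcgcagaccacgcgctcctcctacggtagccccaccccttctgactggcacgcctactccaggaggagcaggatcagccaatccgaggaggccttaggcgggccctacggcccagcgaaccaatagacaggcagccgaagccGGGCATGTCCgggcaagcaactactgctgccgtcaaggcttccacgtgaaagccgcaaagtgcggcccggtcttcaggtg
The Aen match, GGGCATGTCC, begins 30 bases before the start. The consensus reads the same on both strands, and 7.98% of 33469 rat promoters of the same length hold a match, beside 1 of these 6. None of the 6 holds a pair, and 0.0598% of all promoters do. TATAAA was in 0 of the 6 on either strand and in 14.2% of all promoters. CCAAT was in 1 of the 6, that of Aen, and in 37.5% of all. Phlda3 and Pmaip1, with the largest rises, have no exact match in these windows, and Aen, whose change did not pass, has one. Only exact matches to all 10 bases were counted, so a site that departs from the consensus would be missed. The lack of an exact match therefore does not show that a promoter has no p53 site. The search covers these letters in these windows and nothing further from the start.

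Of 20 other listed p53 targets, those of arrest, feedback, repair and metabolism, 16 were measured. Of these 10 rose and 1 fell, beside 11.3% and 9.35% of all genes, and their median change was 0.37. The largest rises were Tp53inp1, a stress-induced regulator of p53 and autophagy (1.43, SE 0.10), Plk3, a polo-like kinase (1.25, SE 0.10), Cdkn1a, an inhibitor of cyclin-dependent kinases (1.22, SE 0.09), and the cyclin Ccng1 (0.68, SE 0.06). The one that fell was Polk, a translesion DNA polymerase (-0.31, SE 0.09, limma adjusted p = 0.0462). Mdm2, whose product directs p53 to degradation, changed by 0.17 (SE 0.10, adjusted p = 0.296) and did not pass. The repair gene Xpc (0.02, adjusted p = 0.908) and Rrm2b, a ribonucleotide reductase subunit gene (0.15, adjusted p = 0.297), did not pass either. Polk, Mdm2, Xpc and Rrm2b were named after their values were seen. The log2 change of Phlda3 was close to that of Cdkn1a, and that of Pmaip1 to that of Ccng1. Whether the death-arm targets differ from these targets as a list was not tested. Under the ribosomal centring 4 of the 16 rose and 2 fell, where 653 of 29214 clusters rose and 7528 fell. With 1 array left out 5 to 9 of the 16 rose, where 1187 to 2327 clusters rose and 1581 to 2078 fell. Without camptothecin replicate 1, 1 of the 16 fell. With any other array left out 0 of the 16 fell, so the call of Polk was lost.

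Among the regulators and relatives of p53, 9 of 15 listed genes were measured, and 1 rose and 3 fell (median -0.14), beside 11.3% and 9.35% of all genes. Ppp1r13b, a p53 cofactor that favours death genes, changed by -0.41 (SE 0.09, limma adjusted p = 0.0199). Usp7, the deubiquitinase that acts on MDM2 and p53, changed by -0.39 (SE 0.08), and the kinase Hipk2 by -0.24 (SE 0.06). Chek1, a checkpoint kinase, rose by 0.36 (SE 0.08), a call that was lost with either centring. With 1 array left out, the call of Hipk2 was lost for each of the 6 arrays and that of Chek1 without camptothecin replicate 2 or 3 or DMSO replicate 2 or 3. That of Ppp1r13b was lost without camptothecin replicate 3 or DMSO replicate 1 or 2, and that of Usp7 without camptothecin replicate 3 or DMSO replicate 1.

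Of 14 measured BCL2 family partners 1 rose and 2 fell (median 0.11), shares near the 11.3% and 9.35% of all genes. The 2 that fell encode protective proteins that BH3-only products bind. Mcl1, the protective partner of NOXA, read 9.35, 9.35 and 9.38 with camptothecin, against 9.88, 9.82 and 9.82 with DMSO. Its treatments stood well apart, and it fell by 0.48 on the log2 scale (change -0.48, SE 0.06, limma adjusted p = 0.00286). Bcl2 read 9.50, 9.47 and 9.23 with camptothecin, against 9.86, 9.86 and 9.92 with DMSO, again without overlap, and changed by -0.48 (SE 0.09, adjusted p = 0.0121). Bcl2l1, another protective gene, changed by 0.03 (SE 0.09, 95% interval -0.19 to 0.24, adjusted p = 0.868), below 0 with either centring. Bok, a BAX relative, rose by 0.33 (SE 0.08), a call that either centring ended, as did leaving out camptothecin replicate 2 or 3 or DMSO replicate 2 or 3. Mcl1 and Bcl2 fell past the threshold with any 1 array left out. They also did so under both centrings, but these lower every change and so make any fall larger. With limma's treat test against a 1.2-fold change both calls were lost (adjusted p = 0.0847 for Mcl1 and 0.274 for Bcl2). That of Bcl2 was also lost at a threshold of 0.01. The counts of this list depended on the filter. With clusters below the median brightness left out before testing, 6 of 11 rose and 2 fell, where 3909 of 14607 clusters rose and 2571 fell. The treatments did not overlap for 7 genes that were higher and 3 that were lower, beside 27.1% and 15.5% of all genes.

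Of 16 measured genes of the apoptosome, the caspases and their regulators 2 rose and 0 fell (median 0.20; 0 genes were lower at an unadjusted p under 0.05 by limma). The share that rose was near the 11.3% of all genes, and 9.35% of all genes fell. Diablo, which frees caspases from their inhibitors, rose by 0.38 (SE 0.07, adjusted p = 0.0153), and Birc2, one of the inhibitor of apoptosis genes, by 0.37 (SE 0.07, adjusted p = 0.0112). The call of Diablo was lost without DMSO replicate 2 or 3. Casp9, the caspase that APAF1 activates, was dim and changed by 0.19 (SE 0.10, adjusted p = 0.231). Under the ribosomal centring 0 of the 16 rose and 2 fell, where 653 of 29214 clusters rose and 7528 fell. With clusters below the median brightness left out before testing, 5 of 10 rose and 0 fell, where 3909 of 14607 clusters rose and 2571 fell.

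Of 15 measured genes of death receptor signalling 3 rose and 3 fell (median 0.09), beside 11.3% and 9.35% of all genes, and 9 of the 15 were dim. Fadd, the adaptor that binds FAS and the TRAIL receptor, read 5.64, 5.75 and 5.84 with camptothecin, against 6.19, 6.27 and 6.27 with DMSO. It changed by -0.50 (SE 0.08, limma adjusted p = 0.00591), the groups standing apart, though at dim values. Tnfrsf21, a death receptor of neurons, changed by -0.72 (SE 0.10, adjusted p = 0.00467). The receptor-interacting kinase Ripk1 rose by 0.50 (SE 0.07) and Faim2, a neuronal inhibitor of FAS-induced death, by 0.42 (SE 0.09). The call of Faim2 was lost under the ribosomal centring and with any array but camptothecin replicate 1 left out, while that of Ripk1 held in both. Faslg, the ligand of FAS, was dim and changed by -0.05 (SE 0.11, adjusted p = 0.799).

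**Figure D4:**
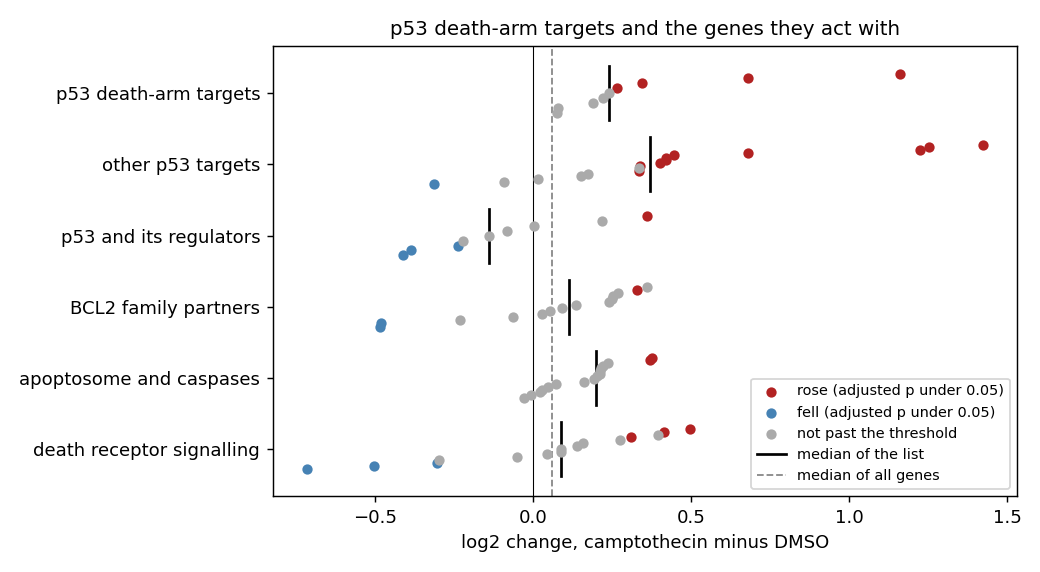
Log2 change (camptothecin minus DMSO) of every measured gene in 6 lists, red where it rose and blue where it fell at an adjusted p under 0.05, with a black line at each list's median and a dashed line at that of all genes (0.06). The death-arm targets (median 0.24) hold no fall, while the regulators of p53 have their median at -0.14.

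The genes whose pattern over the 6 arrays was most like that of Phlda3, by Pearson's r among 8463 eligible genes, were Pfdn5, Tmco1, Calr, Med16 and Klf4, with r from 0.997 to 0.998. A high r over these arrays was common, as 763 of the eligible genes had r above 0.95. Of the 8 other members 1 did so. The 5 genes rose by less than Phlda3, from 0.22 for Med16 to 0.60 for Klf4.

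RNA was taken from whole cultures, so no change can be assigned to a cell type, and fewer cells of a type cannot be told apart from less RNA per cell. Brightness depends on the probes, so the levels below give no share of any cell type. Of 16 listed motor neuron markers 14 were measured and 6 were dim, among them the defining genes Isl1, Isl2 and Slc18a3. Nefh (0.59), Nefm (0.42) and Prph (0.31), genes of neuronal intermediate filaments, rose, and the transcription factor gene Foxp1 fell (-0.34). The other 10 did not pass, among them the filament gene Nefl (0.14). Of the 14, 7 changed above 0 and 7 below, with a median of -0.05. Among all genes 11.3% rose and 9.35% fell. Of 9 measured interneuron and sensory neuron markers 5 fell (-1.79 for Slc6a5 to -0.25 for Pax2) and 0 were dim. The other 4 did not pass and changed above 0 (0.08 for Pou4f1 to 0.26 for Lhx5), so the list did not move as one. The mean log2 level of that list was 8.07 to 8.20 with camptothecin and 8.47 to 8.58 with DMSO. That of 8 endothelial, blood and microglial markers was 6.20 to 6.38 with camptothecin and 6.11 to 6.16 with DMSO, where Cd68 rose by 0.86 and the other 7 did not pass. The mean of 4 oligodendrocyte and Schwann cell markers was 6.63 to 6.64 with camptothecin and 6.80 to 6.85 with DMSO, where Mbp alone fell (-0.48). The mean levels of the motor neuron, progenitor and fibroblast lists overlapped between treatments. Of 9 progenitor and astroglial markers Pax6 fell (-0.58, SE 0.09, adjusted p = 0.00614) and the other 8 did not pass. The 8 fibroblast markers did not pass. The part of these shifts in the members' changes was not tested.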

How the data were processed

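The deposited values are log2 expression values, 1 per transcript cluster and array, from Affymetrix Rat Gene 1.0 ST arrays. RMA and oligo are named per the submitters' processing notes, without versions. No genome build or probe annotation is stated in the sources used here. The table held 29214 clusters on 6 arrays, of which 15310 had 1 gene symbol. Symbols were updated by gene identifier through the RefSeq table of GRCr8, where 15279 matched.

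Values were tested as deposited, without a filter, with limma 3.58.1 (lmFit and eBayes, R 4.3.3), for camptothecin minus DMSO. The p-values are two-sided, adjusted by Benjamini and Hochberg's method over every cluster, with a threshold of 0.05. The precision is limited by the number of arrays, 3 per treatment. Named beside the 10 members are, from each of 5 pathway lists, up to 4 genes past the threshold with the largest change, with Casp9, Bcl2l1 and Faslg as fixed partners, and the 5 genes most like Phlda3. Marker genes and neighbours are named after their values were seen. Members, lists and tests were chosen with earlier results of these data known. Alternatives were other normalizations and scalings (on array medians, or on the mean of 71 ribosomal protein genes), filters, thresholds, variance models, the replicate number as a block and leaving out each array. Alternatives for the pathway genes were chosen after seeing the data.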

Additional observations from a re-analysis of the deposited data

How the results depend on the processing

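Phlda3 and Pmaip1 kept their direction and passed in all 17 alternatives run (log2 change 0.91 to 1.24 and 0.43 to 0.76). Perp and Bbc3 kept their direction in 17 and passed in 6 each. Members that rose numbered 4. With dim clusters taken out before testing they were 5 of the 7 left, where 3909 of 14607 clusters rose. The members' count was 2 with arrays centred on their median or on the ribosomal protein genes. The same count came with the replicate block and at a threshold of 0.01. The count was also 2 with treat against 1.2-fold and with any 1 array left out (range 2 to 2). None fell in any of these fits. With ribosomal centring the change was -0.0600 for Bax, -0.170 for Fas, -0.00817 for Tnfrsf10b, -0.0272 for Aen, -0.175 for Apaf1, -0.221 for Bcl2l1 and -0.0556 for Casp9. With 1 array left out the change ran from -0.00342 to 0.189 for Fas (below 0 without camptothecin replicate 2), from -0.152 to 0.0413 for Faslg (above 0 without DMSO replicate 3) and from -0.0578 to 0.0788 for Bcl2l1 (below 0 without camptothecin replicate 2). Bcl2l1 changed by -0.0382 with median centring and -0.00936 with array weights. None of these reversed changes passed. Over all clusters, 2937 rose and 2311 fell. Median centring gave 1627 rising, ribosomal centring 653 and 7528 falling, a threshold of 0.01 749 and 1379, treat 313 and 908, and 1 array left out 1187 to 2327 rising and 1581 to 2078 falling. The replicate block gave 1677 rising. Same-numbered arrays of the treatments did not deviate together (r of deviations from the treatment means -0.08, 0.02 and 0.08), so the numbers are not taken as pairs. Where a call was lost the cause was not tested. Dim clusters limit what can be seen for Fas and Tnfrsf10b.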

Other observations

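Of the protein-coding genes that neighbour or overlap the 9 genes on GRCr8, 11 were measured, with a median log2 change of 0.20. Of these 2 rose and 0 fell by limma, beside 11.3% and 9.35% of all genes. They were picked out after their values were seen. Ikbip, the neighbour of Apaf1, rose by 0.56 (SE 0.08, adjusted p = 0.00431; mean 6.98 with camptothecin and 6.42 with DMSO), while Apaf1 itself changed by 0.07 (SE 0.07). Ftl1, a ferritin subunit gene beside Bax, rose by 0.27 (SE 0.07, adjusted p = 0.0345), where Bax changed by 0.19. The difference between the genes of a pair was not tested. Rhobtb2, which overlaps Tnfrsf10b on that assembly, changed by 0.01 (SE 0.09, adjusted p = 0.953).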
